A study of Mus musculus with 3 samples.

Results

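Protein tyrosine phosphatases remove the phosphate that kinases add to tyrosine residues, and several of them set how strongly a T cell answers its antigen receptor and its cytokines. The 9 genes described here were the receptor-type phosphatases Ptprc, Ptprj and Ptpre, the phosphatases with paired SH2 domains Ptpn6 and Ptpn11, and the intracellular phosphatases Ptpn1, Ptpn2, Ptpn22 and Ptpn7. They were chosen by name, with earlier results of these data known. Their values were the H3K36me3 peaks whose midpoint lay in the gene body of the GENCODE M21 annotation. All 9 had a peak, among 11948 genes of the annotation that did, and together they held 191 of the 120910 peaks. The question was how the mark on these genes differed between splenic regulatory T (Treg) cells and those of the large intestine (LI).

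The sort took CD3+ CD4+ YFP+ Treg cells of C57BL/6 mice that carry Foxp3Cre-YFP, a Cre recombinase and yellow fluorescent protein driven by the Foxp3 locus, so the sort follows Foxp3, the lineage gene of these cells. The labels name no other altered allele. The cells of 7 female and 7 male adult mice were pooled into 1 library for the spleen and 1 for the LI, and an input library of splenic Treg chromatin was used in peak calling and had no column in the values. There were therefore no replicates, every difference is a difference between 2 pooled libraries, and no test of the tissues was possible. Values are RPKM, read coverage per kilobase scaled to the number of mapped reads, averaged over each peak. From the step between values, the spleen library had about 29600000 mapped reads and the LI library about 38100000. As a measure of precision, each value has an approximate 95% interval that covers counting error only and takes 1 read as covering 200 bp.

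H3K36me3 is the trimethylation of lysine 36 of histone H3. Setd2, which travels with elongating RNA polymerase II, writes it, so that the mark lies over transcribed gene bodies and increases toward their 3' end. A ratio of this mark compares chromatin and not protein, and in pooled cells a lower signal can come from fewer marked cells or from less mark per cell, which cannot be told apart here. The sorted cells carried the mark at the 6 genes taken as Treg markers (Foxp3, Il2ra, Ikzf2, Ctla4, Cd4 and Cd3e), of which Cd4 and Cd3e also mark conventional T cells. Their levels were 5.25 to 20.1 RPKM per base of gene body in spleen and 3.92 to 18.0 RPKM in LI. In the sum of their peaks, Ikzf2 and Cd3e were lower in LI beyond counting error, Ctla4 was higher, and the other 3 were within it. Of the markers of other cells, 1 of 2 for CD8 T cells, 1 of 4 for myeloid cells and 2 of 4 for intestinal epithelium had a peak. For B cells Cd79a and Pax5 had one. Cd8a, Ms4a1, Lyz2, Itgam, Csf3r, Krt8 and Cdh1 had none. The summed body levels in spleen and LI were 3.46 and 2.41 RPKM for Cd79a and Pax5, 0.73 and 1.43 RPKM for epithelium, 0.37 and 0.17 RPKM for CD8 T cells and 0.67 and 0.75 RPKM for myeloid cells.

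The members share the catalytic core of the family, the signature loop in which a cysteine attacks the phosphotyrosine and an arginine, with 5 residues between them, holds the phosphate. The GENCODE coding sequences of the 9 genes held 10 such sites, with 1 in each gene except Ptpre, which had 1 in each of its 2 phosphatase domains. The 9 sites printed here, all outside Ptpn2, show how much of this coding core the genes share, wherever they lie in the genome. Each run of 24 bases reads histidine, cysteine, 5 residues and arginine, with the cysteine codon in capitals, and the mm10 coordinates include an intron where the site spans a splice junction.
Ptprc (chr1:138080255-138080844, minus strand): cacTGCagtgctggtgttgggcgt
Ptprj (chr2:90439977-90440632, minus strand): catTGCagtgctggggttggaagg
Ptpre, first domain (chr7:135669153-135669737, plus strand): cacTGTagcgcgggcgtgggtcgg
Ptpre, second domain (chr7:135679252-135681567, plus strand): cacTGCagcgcgggagcagggcgg
Ptpn6 (chr6:124722063-124724964, minus strand): catTGCagcgctggcatcggccgc
Ptpn11 (chr5:121143614-121144537, minus strand): cacTGCagcgctgggattggccgg
Ptpn1 (chr2:167974207-167974230, plus strand): cacTGCagcgccggcatcgggagg
Ptpn22 (chr3:103876730-103877320, plus strand): cacTGCagtgccggctgcggaagg
Ptpn7 (chr1:135139271-135141958, plus strand): cacTGCagtgcagggatcggccgg
Between these 9 sites, 2 of them in Ptpre, 16 to 21 of the 24 bases were identical, with a median of 18 over 36 pairs, and the most alike were Ptpn7 and Ptpn11. Part of this identity was fixed beforehand, since the sites were found by their histidine, cysteine and arginine. All 10 cysteine codons lay under an H3K36me3 peak of the merged set, and these peaks had from 7.36 RPKM in spleen (Ptprj) to 36.7 RPKM in LI (Ptpn1). Peaks covered from 9.22% (Ptprj) to 92.5% (Ptpn7) of the gene bodies, and the share of all coding bases under a peak was not taken.

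Levels per base of gene body, as deposited, which allow genes of different length to be compared, set the members apart from each other more than the tissues did. In spleen the order from high to low was Ptpn7, Ptpn1, Ptpn22, Ptpn6, Ptprc, Ptpn11, Ptpn2, Ptpre and Ptprj. Ptpn7, a phosphatase of blood cells that acts on MAP kinases, had 24.2 RPKM ± 0.81 (counting SE) in spleen and 22.0 ± 0.68 in LI. At the other end Ptprj had 0.67 ± 0.039 and 1.34 ± 0.048 RPKM. The median over the 9456 protein-coding genes tested was 4.74 RPKM in spleen and 5.02 RPKM in LI, and 6 members lay above it in both libraries while Ptpn2, Ptpre and Ptprj lay below it. Neighbours in the spleen order whose difference was within its counting interval were Ptpn22 and Ptpn6, Ptpn6 and Ptprc, and Ptpn2 and Ptpre. In LI the order was Ptpn7, Ptpn1, Ptpn22, Ptpn11, Ptpn6, Ptprc, Ptpre, Ptpn2 and Ptprj, and there only Ptpn22 and Ptpn11 could not be separated by counting error. Ptprc thus stood in the fifth place in spleen and in the sixth in LI, at 11.4 ± 0.18 and 8.86 ± 0.14 RPKM.

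**Figure D1:**
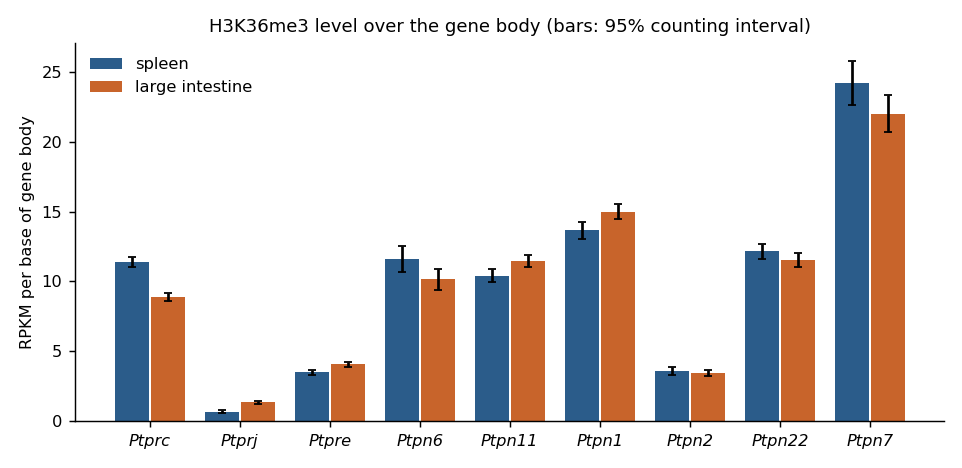
H3K36me3 level in RPKM per base of gene body for the 9 genes in the spleen and LI libraries (1 library each), with 95% counting intervals as error bars. Ptpn7 was highest at 24.2 RPKM in spleen, Ptprj was lowest at 0.67 RPKM, and Ptprc went from 11.4 RPKM in spleen to 8.86 RPKM in LI.

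For the comparison of tissues the peak values of a gene were summed in each library, the LI values were divided by 1.03, the LI total over the spleen total, and the log2 ratio of LI over spleen was taken with a pseudocount of 0.5 RPKM. Of the 9 members, 0 passed a 2-fold difference in either direction, where 3.43% of the 10887 genes tested were more than 2-fold higher in LI and 2.04% in spleen. The counting interval lay above 0 for 1 member, Ptprj, as it did for 18% of all genes. The interval lay below 0 for 4 members, Ptprc, Ptpn6, Ptpn7 and Ptpn22, as it did for 15.2% of all genes. It held 0 for the remaining 4, Ptpn1, Ptpn2, Ptpn11 and Ptpre. The median member ratio was -0.12, beside 0.0053 over all genes tested, whose quartiles were -0.20 and 0.24. Of the member peaks 74 of 191 (38.7%) were higher in LI, beside 49% of all peaks. Without Ptprc this share was 65 of 132 (49.2%), near that of all peaks. Peaks of 1 gene share their libraries and are not replicates.

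**Figure D2:**
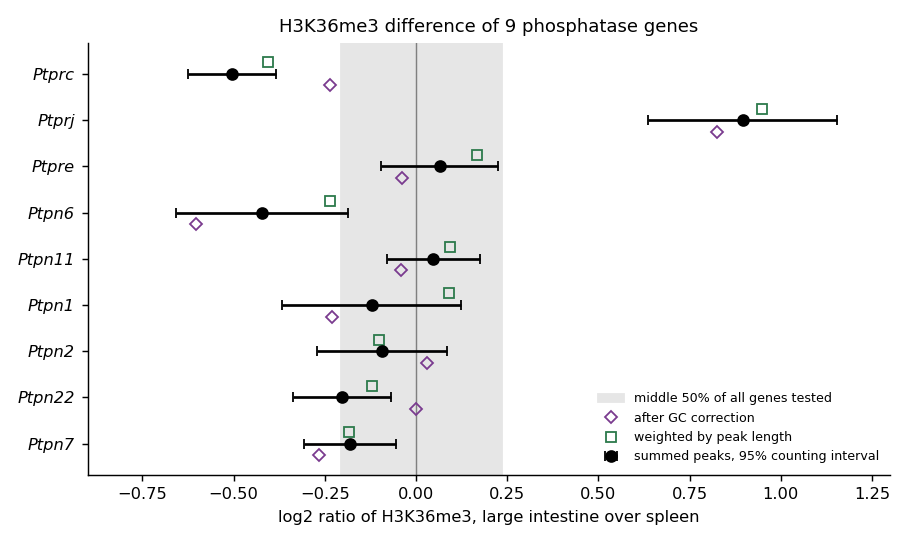
Log2 ratio of summed H3K36me3, LI over spleen, for each gene (black points, 95% counting interval), after GC correction (diamonds) and with peaks weighted by length (squares). The grey band holds the middle 50% of all genes tested, and Ptprj at 0.90 and Ptprc at -0.50 lie on opposite sides of it, with Ptprc drawn to -0.24 by the GC correction.

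The base composition of the peaks bears on these ratios. When all peaks were split into 10 equal classes of GC content, the median log2 ratio ran from -0.41 in the class poorest in G and C to 0.29 in the richest. Over all peaks, those poor in G and C thus tended to be lower in LI. Whether this trend came from the libraries or from the cells was not tested. Peak GC content, weighted by length, was 38.7% in Ptprc, 41.5% in Ptpn22, 43.2% in Ptpn2, 48.7% in Ptprj, 49.3% in Ptpn7 and in Ptpn11, 49.8% in Ptpre, 51.8% in Ptpn1 and 52.5% in Ptpn6, beside a median of 46.5% over all peaks. The median ratio of all peaks of a member's GC content is given below beside its own ratio. In the GC correction that median, taken in 50 bins, was subtracted from each peak.

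**Figure D3:**
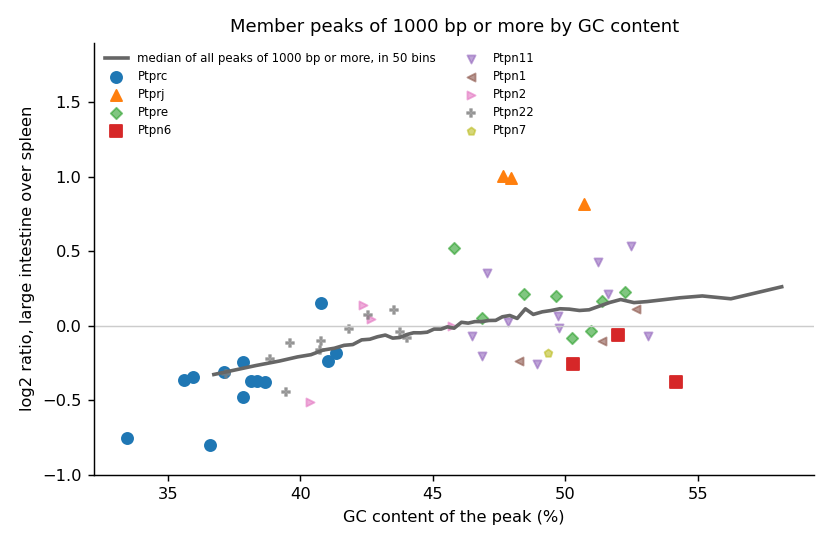
Log2 ratio of LI over spleen for the 57 member peaks of 1000 bp or more against their GC content in percent. The line is the median of all peaks of that length in 50 bins of GC content. The 3 Ptprj peaks lie above it and the 3 Ptpn6 peaks below it, while the 13 Ptprc peaks lie at low GC content, where the line itself is below 0, and 10 of them fall below it.

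Ptprc encodes CD45, the receptor-type phosphatase of all nucleated blood cells that keeps the kinases Lck and Fyn ready by removing their inhibitory phosphate. The gene (ENSMUSG00000026395.16) lies on chr1:138062861-138175708, minus strand, and spans 112.8 kb, of which its 59 peaks covered 67.9%. The peaks summed to 698.0 RPKM in spleen and 508.1 RPKM in LI, 1.42-fold higher in spleen. The log2 ratio was -0.50 [95% counting interval -0.62, -0.38], in percentile 8.19 of all genes tested. Only 9 of 59 peaks were higher in LI, and 20 peaks had an interval below 0 while 0 had one above it. All peaks with the GC content of its peaks had a median ratio of -0.32, and 40 of the 59 peaks lay below the median of their own GC bin. After GC correction the ratio was -0.24 [-0.35, -0.12]. In peaks of at least 1000 bp alone it was -0.36, and with GC correction from such peaks it was -0.10 [-0.19, -0.0090]. With GC correction and length weights together it was -0.079 [-0.14, -0.017]. Ptprc thus stayed lower in LI, with an interval below 0, under each of these settings, and the size of the difference depended on how GC content was allowed for. Some peaks also lay in A130071D04Rik, a gene inside the body of Ptprc, and without them the ratio was -0.48.

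Along Ptprc the signal was thin over the long intron before exon 3 and dense from exon 4 to the 3' end. The first peak began 2.60 kb from the outer start and had 10.8 RPKM in spleen and 9.81 RPKM in LI. With the gene body cut into 3 equal parts, the 5' part had 4.52 RPKM per base in spleen and 2.99 RPKM in LI, the middle part 11.9 and 9.61 RPKM and the 3' part 17.7 and 14.0 RPKM. The 3' part thus held 51.8% of the spleen signal and 52.6% of the LI signal, near the medians of 54.0% and 55.3% over protein-coding genes. The ratio was -0.64 [-0.83, -0.46] in the 5' part, where 4 of 32 peaks were higher in LI, -0.35 [-0.46, -0.25] in the middle part and -0.38 [-0.47, -0.29] in the 3' part, where 0 of 9 were. The ratio of the 5' part minus that of the 3' part was -0.26 [-0.46, -0.05], and -0.40 [-0.60, -0.20] after GC correction. Among 3165 genes with at least 10 peaks and signal in both parts this difference stood in percentile 29.3, within the quartiles of -0.30 and 0.13 around a median of -0.09. The peak with the most signal as RPKM times length, summed over both libraries, of 10806 bp at the 3' end (chr1:138062989-138073794), had 22.1 RPKM in spleen and 17.4 RPKM in LI, a ratio of -0.38 [-0.53, -0.23]. The long peak with the lowest ratio had 17.7 and 10.3 RPKM (chr1:138102841-138104275, -0.80 [-1.28, -0.32]).

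**Figure D4:**
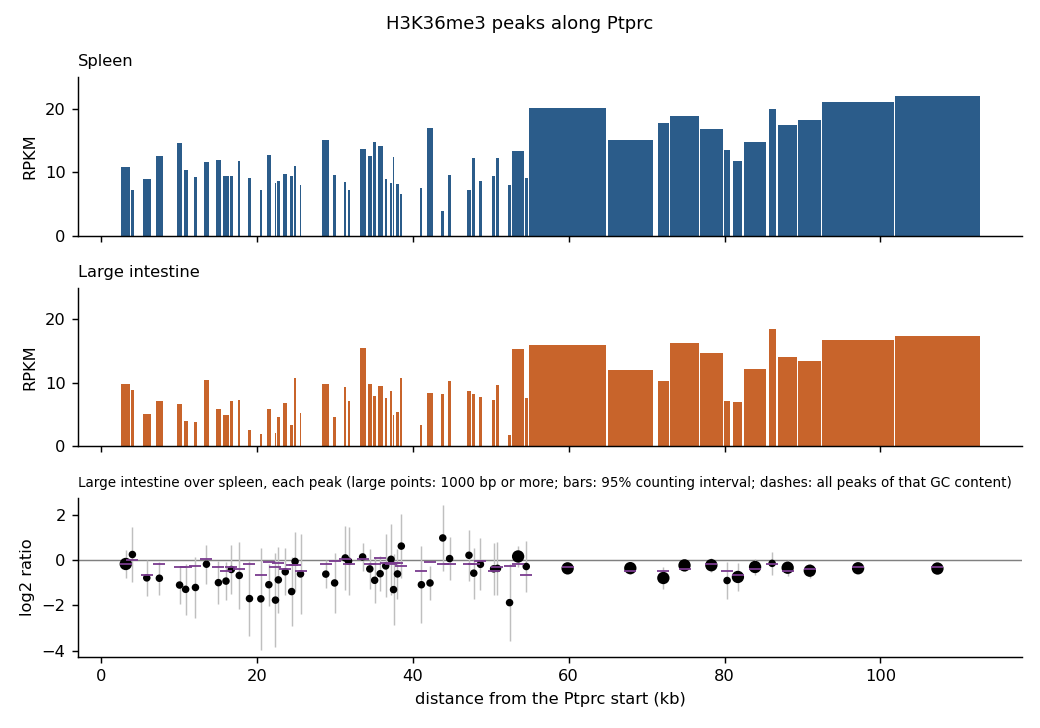
H3K36me3 peaks along Ptprc by distance from the gene start in kb: mean RPKM of each peak in spleen (top) and LI (middle), and the log2 ratio of LI over spleen per peak with its 95% counting interval (bottom). Dashes mark the median of all peaks of the same GC content, and 50 of the 59 ratios lie below 0.

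Ptprc is also the gene whose alternative exons define the CD45 isoforms by which T cell states are named. Exons 4, 5 and 6 encode the A, B and C segments of the extracellular part, which T cells include or skip according to their state. They are shown because H3K36me3 values differed between the peak over exon 4 and the peak over exons 5 to 7. Each exon is in capitals between 10 lower-case bases of the introns beside it, and each intron ends in ag before the exon and begins with gt after it.
Ptprc exon 4 (chr1:138122456-138122584, minus strand): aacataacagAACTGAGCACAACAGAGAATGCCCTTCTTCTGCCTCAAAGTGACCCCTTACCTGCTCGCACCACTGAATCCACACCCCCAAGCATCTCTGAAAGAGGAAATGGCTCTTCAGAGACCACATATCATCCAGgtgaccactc
Ptprc exon 5 (chr1:138120020-138120166, minus strand): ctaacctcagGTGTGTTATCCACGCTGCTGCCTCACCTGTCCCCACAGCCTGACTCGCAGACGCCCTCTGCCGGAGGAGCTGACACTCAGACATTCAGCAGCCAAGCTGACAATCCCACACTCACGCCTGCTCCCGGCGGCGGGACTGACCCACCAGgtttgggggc
Ptprc exon 6 (chr1:138117754-138117894, minus strand): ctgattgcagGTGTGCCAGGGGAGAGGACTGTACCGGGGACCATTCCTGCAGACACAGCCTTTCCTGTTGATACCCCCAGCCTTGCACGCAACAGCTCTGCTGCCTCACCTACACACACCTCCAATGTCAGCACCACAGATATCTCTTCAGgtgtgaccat
Ptprc exon 7 (chr1:138116954-138117025, minus strand): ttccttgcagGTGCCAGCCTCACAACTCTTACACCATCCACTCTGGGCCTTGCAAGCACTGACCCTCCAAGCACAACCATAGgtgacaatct
In GENCODE, the coding transcript Ptprc-207 has all 4 of these exons, Ptprc-203 keeps only exon 7, and Ptprc-204 has none of them. Exon 4 lay under a peak of 1483 bp with 13.3 RPKM in spleen and 15.3 RPKM in LI, a ratio of 0.15 [-0.31, 0.61], and this was the only one of the 13 Ptprc peaks of at least 1000 bp that was higher in LI. Exons 5, 6 and 7 lay under 1 peak of 9845 bp with 20.2 RPKM in spleen and 16.0 RPKM in LI, a ratio of -0.37 [-0.53, -0.21]. GC content was 40.8% in the first of these peaks and 38.4% in the second, and the median ratios of all long peaks of those GC contents were -0.16 and -0.27. The intervals of the 2 peaks overlap, and these peaks are too long to assign a value to 1 exon, so nothing about splicing was measured.

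Ptprj, which encodes CD148, a receptor-type phosphatase that acts on Src family kinases and growth factor receptors, was the member with the largest difference. The gene (ENSMUSG00000025314.16; chr2:90429754-90580647, minus strand) spans 150.9 kb, and its 16 peaks covered 9.22% of it. The peaks summed to 103.3 RPKM in spleen and 198.7 RPKM in LI, 1.86-fold higher in LI (log2 ratio 0.90 [0.64, 1.16], percentile 95.6). All 16 peaks were higher in LI, which was so for 2.43% of the 3988 genes with 10 or more peaks. Spleen values ranged from 2.60 to 10.2 RPKM with a median of 6.72, and LI values from 7.49 to 18.9 RPKM with a median of 11.6. The 2 ranges overlapped, and 6 peaks had an interval above 0. The peak with the most signal as RPKM times length, of 4078 bp (chr2:90452255-90456332), had 7.76 RPKM in spleen and 16.5 RPKM in LI, and the ratios of the 3 peaks of at least 1000 bp lay between 0.82 and 1.01. All peaks with the GC content of Ptprj had a median ratio of 0.07, all 16 peaks lay above the median of their GC bin, and the ratio after GC correction was 0.82 [0.56, 1.09]. Epcam, the epithelial marker with the most peaks, had body levels of 0.68 RPKM in spleen and 1.29 RPKM in LI, with higher LI values in 5 of 5 peaks. The 5 Epcam peaks summed to 25.3 RPKM in spleen and 47.2 RPKM in LI, a ratio of 0.84 [0.23, 1.46]. Ptprj had more peaks and a larger sum, and its body levels were 0.67 and 1.34 RPKM, near those of Epcam. Vil1 had 1 peak, at 4.63 and 12.6 RPKM, and the epithelial markers Krt8 and Cdh1 had none. What part other cells had in the Ptprj signal was not tested.

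The Ptprj signal lay far from the outer start of the gene. The first peak began 111.2 kb from it, at 73.7% of the gene body, and 100% of the signal of both libraries fell in the 3' part. GENCODE has 3 coding starts, the outer one, one 101.5 kb further on and one 109.3 kb further on, and the first peak began 9.76 kb past the second and 1.93 kb past the innermost. RefSeq (GRCm38.p6) gives promoter windows for the outer start and for the second, and their 250 bases before the start are printed because the peaks began much nearer to the second start than to the outer one. CG dinucleotides are in capitals. A CG reads the same on both strands.
Ptprj outer start (chr2:90580596-90580845, minus strand): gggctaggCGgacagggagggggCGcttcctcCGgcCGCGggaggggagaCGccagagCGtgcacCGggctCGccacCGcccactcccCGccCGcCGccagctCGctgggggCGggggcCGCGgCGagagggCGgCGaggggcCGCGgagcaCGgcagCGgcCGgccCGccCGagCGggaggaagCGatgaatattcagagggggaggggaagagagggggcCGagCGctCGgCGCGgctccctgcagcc
Ptprj inner start (chr2:90479175-90479424, minus strand): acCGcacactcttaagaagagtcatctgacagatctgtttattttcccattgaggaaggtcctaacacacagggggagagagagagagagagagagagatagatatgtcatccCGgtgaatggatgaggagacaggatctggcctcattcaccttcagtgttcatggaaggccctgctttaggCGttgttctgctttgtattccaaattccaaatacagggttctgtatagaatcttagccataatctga
The window of the outer start held 34 CG dinucleotides at 79.2% GC, and 3.53% of 32851 windows of that length held as many or more, where the median was 6. The window of the second start held 3, a number reached by 71.0% of windows, at 44.8% GC. The CG-rich outer start had no H3K36me3 peak over the first 111.2 kb after it in either library. These letters describe the windows and do not show which start was in use.

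Ptpre, a receptor-type phosphatase with a cytosolic isoform that arises from an inner start, also carried its mark far from its outer start. The gene (ENSMUSG00000041836.10; chr7:135537481-135686293, plus strand) spans 148.8 kb, and its 16 peaks covered 22.4% of it, all in the 3' part. The peaks summed to 202.0 RPKM in spleen and 218.0 RPKM in LI, a ratio of 0.06 [-0.10, 0.23], where all peaks of its GC content had a median of 0.11. With length weights it was 0.17 [0.074, 0.26], with the interval above 0, and after GC correction it was -0.039 [-0.20, 0.12]. The peak with the most signal as RPKM times length, of 12244 bp (chr7:135656058-135668301), had 17.1 RPKM in spleen and 20.4 RPKM in LI. GENCODE has inner coding starts at 55.9, 68.3 and 114.5 kb, and the first peak began 36.2 kb past the one at 68.3 kb. Before the innermost coding start, at 114.5 kb, lay 5 peaks that summed to 44.9 RPKM in spleen and 43.8 RPKM in LI, and 1 of the 5 was higher in LI. After this innermost start lay 11 peaks that summed to 157.0 and 174.3 RPKM, 9 of which were higher in LI. The 5 early peaks also lay in 5830432E09Rik, an antisense gene, and ChIP has no strand, so the 2 genes share these values. Without them the ratio was 0.10 [-0.06, 0.27]. The first peak in the body of Ptpre thus began 104.6 kb from the outer start, but it is one of the peaks shared with the antisense gene. The first peak after these began 115.6 kb from the outer start, past the innermost coding start. The interval of the Ptpre ratio did not overlap with that of Ptprj.

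**Figure D5:**
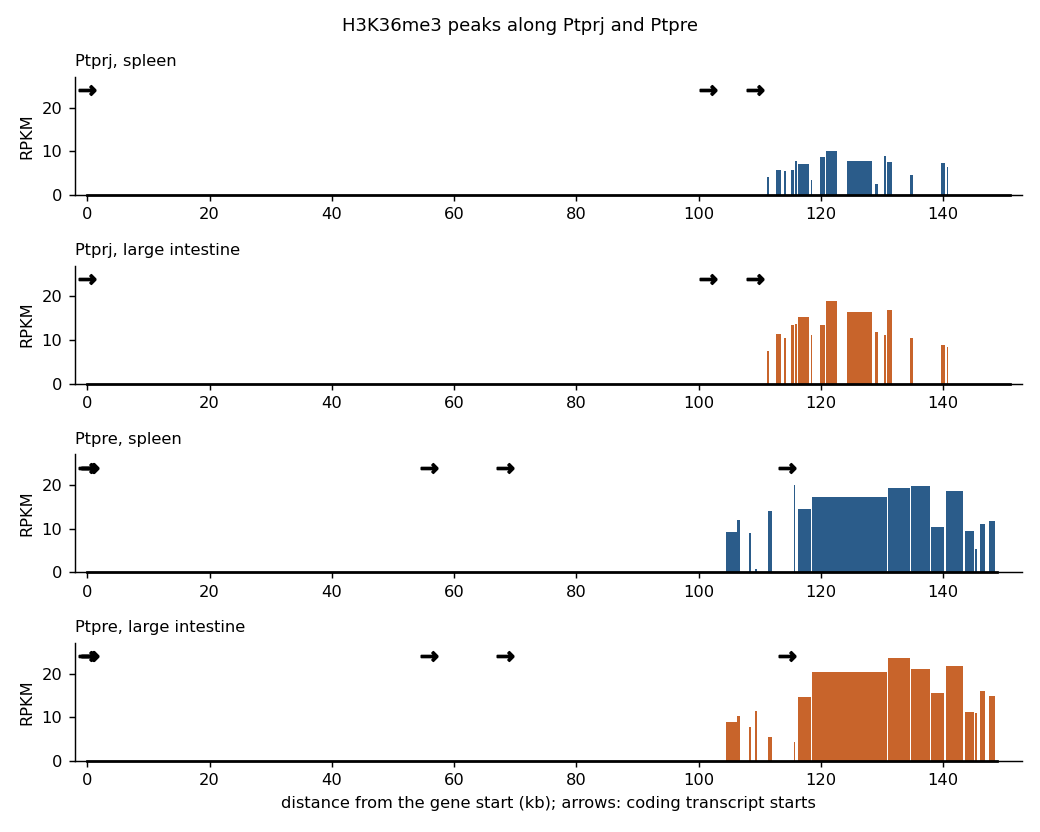
H3K36me3 peaks along Ptprj and Ptpre by distance from the outer gene start in kb, as mean RPKM per peak in spleen (blue) and LI (orange), with arrows at the coding transcript starts of the annotation. The peaks began 111.2 kb from the outer start in Ptprj and 104.6 kb from it in Ptpre, where the early peaks also lay in an antisense gene. All 16 Ptprj peaks are higher in LI.

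Ptpn6 encodes SHP-1, which docks on inhibitory receptors through its SH2 domains and dampens antigen receptor signals. The gene (ENSMUSG00000004266.15; chr6:124720707-124738714, minus strand) spans 18.0 kb and had 6 peaks, which summed to 119.8 RPKM in spleen and 92.2 RPKM in LI, 1.34-fold higher in spleen (ratio -0.42 [-0.66, -0.19], percentile 10.7). From the 5' end the spleen values were 16.5, 10.96, 26.0, 26.6, 17.8 and 22.0 RPKM, and the LI values were 6.62, 14.2, 25.7, 22.9, 5.31 and 17.4 RPKM. Only the second peak was higher in LI, the third differed little, and the 2 short peaks of 260 and 257 bp differed most, with ratios of -1.30 and -1.69. The 3 long peaks had ratios between -0.38 and -0.06. Unlike Ptprc, Ptpn6 lay at a GC content where all peaks had a median ratio of 0.18, and after GC correction its ratio was -0.60 [-0.85, -0.36]. With length weights it was -0.24 [-0.39, -0.080]. The middle part of the gene had 13.0 RPKM per base in spleen and 12.8 RPKM in LI (-0.07 [-0.32, 0.18]), and the 3' part 21.8 and 17.7 RPKM (-0.35 [-0.55, -0.15]). The first peak began 6.38 kb from the outer start and also lay in Gm20531, an antisense gene. Without that peak the ratio was -0.32 [-0.53, -0.097]. Cd79a, a marker of B cells, which also express Ptpn6 and Ptprc, had body levels of 3.46 RPKM in spleen and 2.40 RPKM in LI, with 0 of its 4 peaks higher in LI. Pax5, another B cell marker, went the other way in its 1 peak, with 4.05 RPKM in spleen and 9.91 RPKM in LI, and Ms4a1 had no peak. The part of B cells in the Ptpn6 and Ptprc ratios was not tested.

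Ptpn11 encodes SHP-2, the paralog of SHP-1 that promotes signals of growth factor and cytokine receptors to Ras. Its gene (ENSMUSG00000043733.14; chr5:121130533-121191397, minus strand) had 17 peaks over 60.2% of 60.9 kb, with 254.3 RPKM in spleen and 271.4 RPKM in LI and a ratio of 0.05 [-0.08, 0.18], where all peaks of its GC content had a median of 0.10. The first peak began 19.1 kb from the start, and the 5' part held 1.12% of the spleen signal and 1.25% of the LI signal. Peaks higher in LI numbered 8 of 17. The 3' part had 14.4 RPKM per base in spleen and 16.8 RPKM in LI (0.17 [0.048, 0.30]), and the long peak with the highest ratio, at the 3' end (chr5:121131659-121134214), had 16.3 RPKM in spleen and 24.5 RPKM in LI (0.53 [0.23, 0.84]). The long peak with the lowest ratio had 15.8 and 13.5 RPKM (-0.26 [-0.64, 0.12]), and the one with the most signal as RPKM times length, of 10395 bp, had 19.3 and 20.8 RPKM. With length weights the ratio of the gene was 0.092 [0.0072, 0.18], and after GC correction it was -0.041 [-0.17, 0.089]. The interval of Ptpn6 lay below that of Ptpn11 without overlap, both as summed and after GC correction.

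Ptpn1 and Ptpn2 encode PTP1B and TC-PTP, close relatives that act on JAK kinases, STAT factors and the insulin receptor, and the interval of both held 0 in the plain sum of peaks. Ptpn1 (ENSMUSG00000027540.13; chr2:167932057-167979385, plus strand) had 16 peaks with 186.6 RPKM in spleen and 177.1 RPKM in LI, a ratio of -0.12 [-0.37, 0.12], with 7 peaks higher in LI. One peak of 17135 bp at its 3' end (chr2:167963211-167980345), the longest of any member, held 86.9% of the spleen signal by length and had 32.8 RPKM in spleen and 36.7 RPKM in LI, a ratio of 0.12 [0.027, 0.20]. With length weights the ratio of Ptpn1 was 0.091 [0.0064, 0.18]. All long peaks of the GC content of that peak had a median ratio of 0.16, as had all peaks of the GC content of the gene. After GC correction the ratio of Ptpn1 was -0.23 [-0.48, 0.020], and with GC correction and length weights it was -0.086 [-0.17, 0.00074], so that its direction depended on the setting. Ptpn2 (ENSMUSG00000024539.17; chr18:67665511-67724595, minus strand) had 36 peaks with 344.4 RPKM in spleen and 333.3 RPKM in LI, a ratio of -0.09 [-0.27, 0.08]. All peaks of its GC content had a median ratio of -0.13, and after GC correction its ratio was 0.031 [-0.14, 0.21]. Peaks higher in LI numbered 16, and Ptpn2 was the only member whose first peak reached across the outer start, by 0.15 kb. In its peak with the most signal as RPKM times length the values were 16.3 RPKM (spleen) and 16.8 RPKM (LI). Per base of gene body Ptpn2 carried 3.56 RPKM in spleen and 3.43 RPKM in LI, beside 13.7 and 15.0 RPKM in Ptpn1.

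Ptpn22 encodes LYP, also called PEP in mice, which binds the kinase Csk and restrains Lck and Zap70. Its gene (ENSMUSG00000027843.13; chr3:103859795-103912247, plus strand) had 24 peaks over 81.2% of 52.5 kb, with 303.0 RPKM in spleen and 271.7 RPKM in LI. The ratio was -0.20 [-0.34, -0.07], with 7 of 24 peaks higher in LI. All peaks of its GC content had a median ratio of -0.18, and after GC correction the ratio was -0.00071 [-0.13, 0.13], so the interval then held 0. With length weights added it turned to 0.053 [-0.033, 0.14], and in peaks of at least 1000 bp with GC correction it was 0.040 [-0.065, 0.14]. The peak with the most signal as RPKM times length had 15.8 RPKM for spleen and 17.6 RPKM for LI (0.11 [-0.10, 0.32]), and the long peak with the lowest ratio had 14.4 and 10.8 RPKM (-0.44 [-0.83, -0.06]). Ptpn22 carried its highest level in the middle part, with 15.8 RPKM per base in spleen and 15.6 RPKM in LI, beside 10.9 and 10.4 RPKM in the 5' part and 9.81 and 8.60 RPKM in the 3' part. The mark began 0.62 kb from the outer start.

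Ptpn7 encodes HePTP, the MAP kinase phosphatase of blood cells named above. The gene (ENSMUSG00000031506.11; chr1:135132700-135145317, plus strand) spans 12.6 kb and lay for 92.5% of its length under 1 peak of 12128 bp, with 25.2 RPKM in spleen and 22.9 RPKM in LI (-0.18 [-0.31, -0.06]). All long peaks of its GC content had a median ratio of 0.10, and after GC correction the ratio was -0.26 [-0.39, -0.14]. Since 1 peak stands for the gene, no second peak bears on the value.

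Among the other classical tyrosine phosphatases fewer genes had a peak, in lists whose choice could itself set such a difference. Of 28 genes, 17 had no peak, among them the receptors of brain and endothelium Ptprd, Ptprt, Ptprz1 and Ptprb, and 10 had enough signal to be tested. Of these 10, the interval lay above 0 in 5 and below 0 in 0, and the median ratio was 0.32, beside 18% and 15.2% of all genes tested and their median of 0.0053. Ptpn21, a cytosolic phosphatase with a FERM domain, was the only gene past 2-fold, with 30.1 RPKM in spleen and 64.9 RPKM in LI (1.05 [0.41, 1.69]). It had 5 peaks and low body levels of 0.16 and 0.33 RPKM. The interval also lay above 0 in Ptpn3, Ptpn13, Ptpn9 and Ptprs, with ratios from 0.51 (Ptprs) to 0.96 (Ptpn3), and these were named after their values were seen. Ptpn4 had the lowest ratio, with 47.1 and 44.2 RPKM (-0.14 [-0.78, 0.50]). Body levels of these genes reached at most 7.84 RPKM in spleen, in Ptpn23, which is below 6 of the 9 members. In LI the highest was again Ptpn23, at 9.76 RPKM, above Ptprc at 8.86 RPKM and below Ptpn6 at 10.2 RPKM. The lists were set with results of these data known, and their difference was not tested.

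The kinases, adaptors and STAT factors that the members act on or bind were also mostly marked, with peaks in 14 of 16 genes and none in Ptprcap, the partner of CD45, or in Gab2. Of the 14 tested, 0 were past 2-fold, 6 had an interval above 0, 2 had one below 0, and the median ratio was 0.10, against the same shares and median of all genes. The highest ratio was that of Stat3, a substrate of Ptpn2 and Ptpn11, with 245.9 RPKM in spleen, 389.3 RPKM in LI and higher LI values in 21 of 21 peaks (0.62 [0.49, 0.74]). The lowest was that of Pag1, the membrane anchor of Csk and a substrate of CD45, with 151.8 and 120.4 RPKM (-0.38 [-0.61, -0.15]). Lck, the main substrate of CD45, had 193.3 RPKM in spleen and 183.2 RPKM in LI (-0.12 [-0.31, 0.06]), and Fyn had 1169 and 1224 RPKM (0.02 [-0.07, 0.11]). These 2 kinases were named after their values were seen. The intervals of both kinases held 0 and did not overlap with that of Ptprc, without GC correction, which was not applied to these lists one by one.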

How the data were processed

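H3K36me3 ChIP-seq libraries of splenic and LI Treg cells were compared, with 1 library per tissue. Reads (single-end, 75 nt) were mapped to mm10 by the authors, who called peaks with MACS2 (p 0.01) against splenic input and merged them with bedtools. The submitters' processing notes also name Bowtie2 and FastQC, without their role. The deposited values are the mean RPKM coverage of each merged peak. The label of the table names raw counts, yet the values have decimals, and multiplied by peak length they come in whole steps (100% of the low peaks of each library), as a coverage mean does.

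Peaks were assigned by midpoint to GENCODE M21 gene bodies on GRCm38, the assembly of mm10. Columns were scaled to their totals. A gene was tested if its libraries summed to at least 20 RPKM, against a 2-fold threshold, with ratios on the log2(value + 0.5) scale, which understates changes of low genes. Intervals took reads as independent molecules. Because the values were RPKM and not counts, no count test was run, and no p-value was computed. All 9 members were named; of each list, genes past 2-fold, or else those with the highest and lowest ratio; of peaks, the one with the highest RPKM times length and the long peaks of extreme ratio. Members, lists and rules were chosen with earlier results of these data known. Alternatives changed scaling, pseudocount, filter, weights, assignment, peak length and GC content. The GC correction used 50 bins. Scripts ran in Python 3.11.15 with numpy 2.4.6 and pandas 2.3.3 and were tested on simulated data. The input had no column and was not analysed here, and 1 marker gene is not reported here. Promoter windows are RefSeq's (8 members matched), and other sequences were read from the RefSeq genome of GRCm38.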

Additional observations from a re-analysis of the deposited data

How the results depend on the processing

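Of 187 values recomputed under the alternatives, 173 stayed within the range set around their main value, 12 left it and 2 reversed. The 173 include the counts of members past 2-fold, which were 0 under every setting. They also include ratios that could not move because a setting left the peaks of the gene unchanged, as for Ptprj by nearest transcript start. For member ratios the range around the main value was the counting interval, and a reversal was scored only where that interval lay off 0. Sign changes were therefore not scored for Ptpn1 (-0.23 to 0.091), Ptpn2 (-0.13 to 0.035), Ptpn11 (-0.041 to 0.14) and Ptpre (-0.083 to 0.17), whose intervals held 0. Ptprc remained lower in LI throughout but moved from -0.50 to -0.36 with peaks assigned by nearest transcript start, -0.36 in peaks of at least 1000 bp and -0.24 with GC correction. Under settings added after the data were seen it was -0.079 with GC correction and length weights, and -0.098 in peaks of at least 1000 bp with GC correction. Ptpn22 moved to -0.00071 with GC correction and reversed to 0.053 and 0.040 under the same added settings. Ptprj stayed between 0.82 and 0.96, and Ptpn6 between -0.60 and -0.22. The count of members with an interval above 0 was 4 with length weights, 3 in peaks of at least 1000 bp and 2 by nearest transcript start, instead of 1, beside 22.5%, 21.6%, 16.4% and 18% of all genes, and the share of member peaks higher in LI was 47.6% with GC correction. The log2 of the last over the first part of Ptprc per kb was 1.97 in spleen and 2.23 in LI for 3 parts, and 2.36 and 2.75 for 5 parts. The cause of the moves with peak length, assignment and number of parts was not tested.

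Over all genes, 373 higher in LI and 222 higher in spleen passed 2-fold. These counts were 261 and 248 with GC correction, 424 and 198 with the deposited scaling, 624 and 457 with no filter, 70 and 39 at 200 RPKM or more, 253 and 138 with a pseudocount of 5, 120 and 40 in peaks of at least 1000 bp, 92 and 39 in such peaks with GC correction, 438 and 327 by nearest transcript start, and 232 and 194 with GC correction and length weights. With 1 read taken as covering 75 bp, the interval lay above 0 in 28.3% of genes and below 0 in 26.4%. Ptpn7 has no value without its strongest peak or for peaks wholly inside the body, since no peak is left. No paired analysis was possible because each tissue has 1 library and no result comes from a test. With 1 library per tissue, the intervals hold no variation between animals, sorts or immunoprecipitations.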
